A study of Danio rerio with 18 samples.

Results

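The genes described here are the neurotransmitter receptors of the zebrafish larva: 129 genes, with 261 annotated transcripts, of 32520 genes and 59876 transcripts in the deposited table. A gene was a member if its transcripts' symbols, without the isoform number, began with the root of a GABA, glycine, glutamate, acetylcholine, serotonin or dopamine receptor name. Whole-body RNA of AB wild type larvae at 120 hours post fertilisation (hpf) was sequenced from 18 samples. There were 6 groups with 3 samples each. The exposed larvae received perfluorobutanesulfonic acid (PFBS, a short-chain perfluorinated surfactant) at 7, 70, 700, 3500 or 7000 µM, and the control larvae at 0 µM. Going by its title, the study concerns developmental neurotoxicity of PFBS and its longer-chain relative PFOS. How many larvae a sample held, and whether the 3 of a group were separate clutches, is not stated, so every p-value rests on the variation among these samples, and that may be technical.

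Neurons signal to their targets by releasing transmitters, and the receptors on the receiving cell decide what the signal does. Ionotropic receptors are channels built of several subunits. In most vertebrate neurons GABA-A and glycine receptors pass chloride and inhibit, whereas AMPA, kainate, NMDA and nicotinic receptors pass cations and excite. Metabotropic receptors act through G proteins. Zebrafish keep many receptor genes as pairs of duplicates, named a and b, from the genome duplication of teleost fish.

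All 129 genes had reads, and 115 passed the filter on low counts and were tested. The 14 that were not tested included 6 serotonin, 4 muscarinic and 2 dopamine receptor genes, and together the members took 0.309 to 0.535% of the counts of a library. Total counts per library lay between 14937147 and 19267232. In the first principal component of all genes, replicate 3 of 7000 µM stood apart from the other libraries. Markers of neurons, glia, skeletal muscle, retina, notochord and epidermis had reads in every group. Because the RNA came from whole larvae, fewer cells of a type and less RNA per cell cannot be told apart. Levels are compared between genes in TPM, a deposited unit that allows for transcript length, summed here per gene. Levels are compared between groups in CPM, read counts relative to library size after TMM scaling.

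The subunits with the highest levels were those of glutamate receptors. On the TPM scale, averaged over all 18 libraries, grin1b was first at 232 TPM and grin1a followed at 144 TPM. Both encode the subunit that every NMDA receptor needs. The AMPA receptor subunit gene gria3a lay between them at 159 TPM, and gria4a came after them at 66.9 TPM. Next came glrbb, a beta subunit of the glycine receptor, at 57.5 TPM, and the AMPA subunit genes gria2b at 52.9 TPM and gria2a at 46.0 TPM. Among GABA-A subunits gabrb2a averaged 28.4 TPM and gabrd, the delta subunit gene, 27.0 TPM. The leading gene of the muscle nicotinic receptor, chrna1, averaged 15.6 TPM. Of the neuronal nicotinic genes chrna5 was highest at 11.9 TPM, of the serotonin receptors htr1aa at 10.3 TPM, of the muscarinic receptors chrm4a at 9.06 TPM, and of the dopamine receptors drd1b at 7.51 TPM. In all, 31 members averaged above 10 TPM, 99 averaged above 1 TPM and 3 averaged under 0.1 TPM. The lowest, the muscarinic gene chrm1a, had 3 reads over all libraries.

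**Figure D1:**
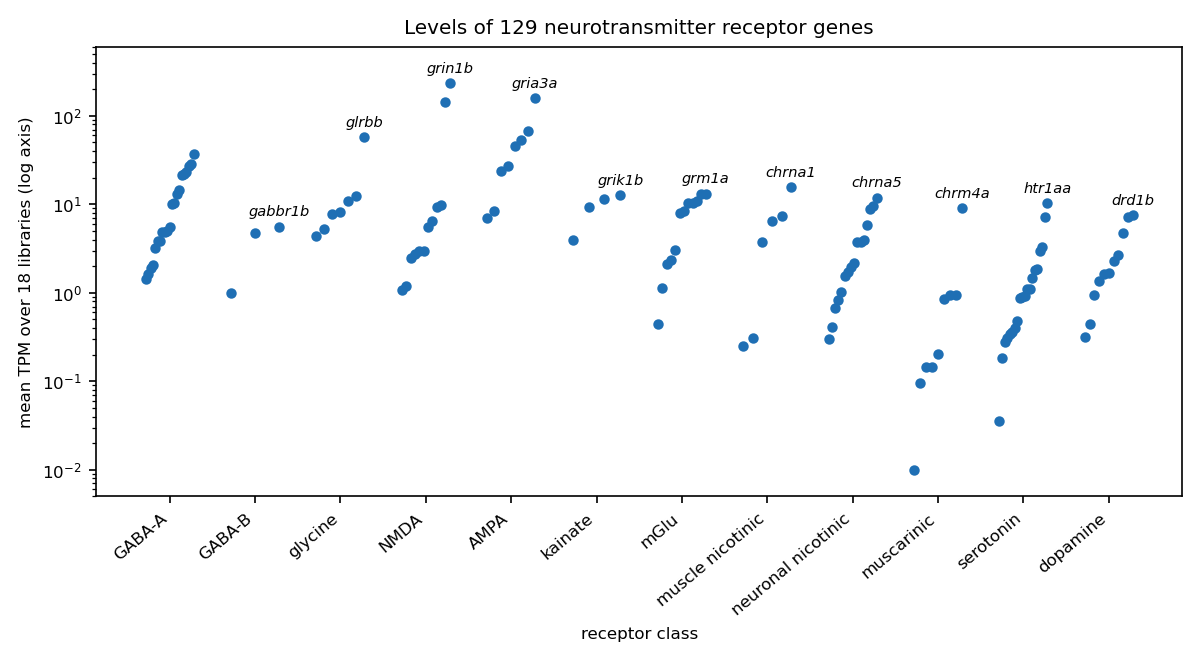
Mean level of each of the 129 receptor genes over the 18 libraries, in TPM on a log axis, with 1 point per gene, classes along the x axis and the highest gene named in each class but GABA-A. The points run from chrm1a at 0.01 TPM to grin1b at 232 TPM, and NMDA and AMPA subunits hold the highest places.

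Few receptor genes differed from controls at the lower concentrations, and all but 1 of the differences from controls that passed the test lay at 3500 and 7000 µM. Each concentration was set against the same 3 control libraries, so the comparisons with controls are not independent of each other. At 7 µM edgeR's quasi-likelihood test called 0 of 115 members after Benjamini-Hochberg adjustment, where 0.0333% of all 21046 genes tested were called. There 5 members had an unadjusted p under 0.05, as had 5.02% of all genes, and DESeq2 called 0. At 70 µM the test again called 0 members, against 0.28% of all genes, with 0 called by DESeq2. An unadjusted p under 0.05 was reached by 31 members, or 27.0%, and by 13.7% of all genes. The members' log2 fold changes at 70 µM nevertheless leaned upwards: 100 of 115 were above 0, a share of 87.0% against 55.1% of all genes, and their median was 0.21 against 0.03 for all genes. The lean was not particular to receptors. Above 0 at 70 µM were 90.3% of pan-neuronal genes and 96.0% of retinal markers, but 3.23% of skeletal muscle markers. Of the members, 72.2% were above 0 at 7 µM and 73.9% at 700 µM, against 51.3% and 52.2% of all genes. The summed level of all members was 3909 and 4231 CPM in replicates 1 and 2 and 3539 CPM in replicate 3 at 70 µM, against 3103, 3282 and 3541 CPM in controls. Replicates 1 and 2 also had the lower sums of notochord and epidermis markers, 7981 and 7444 CPM against 14580 CPM in replicate 3 and 14880 to 18190 CPM in controls. The part of tissue makeup in that lean was not tested. With libraries scaled to 31 pan-neuronal genes instead, the members' median at 70 µM was 0.05 and that of all genes -0.14.

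At 700 µM 1 member of 115 was called, where 3.2% of all genes were, 1.27% higher and 1.93% lower. This was glrba, which encodes a beta subunit of the glycine receptor, the subunit that ties the receptor to the anchoring protein gephyrin. It had 15.77, 15.1 and 15.28 CPM at 700 µM, against 10.73, 10.59 and 12.49 CPM in controls, so the groups did not overlap (log2 fold change 0.45 ± 0.11 SE, edgeR adjusted p = 0.034). The call was lost without control replicate 1 or 2, any replicate of 700 µM, replicate 1 of 3500 µM or replicate 1 of 7000 µM. It was also lost with pan-neuronal scaling and with the replicate block. At 3500 µM 9 members were called, 5 higher and 4 lower, or 7.83% of those tested against 9.47% of all genes, of which 5.14% were higher and 4.33% lower. Without control replicate 1 or 2 the count was 0 (24 and 22 members had an unadjusted p under 0.05), without replicate 1 or 3 of 3500 µM it was 1, without replicate 2 it was 22, and with only the controls and 3500 µM fitted it was 4. These moves were not particular to receptors. Over all genes 1082 were called higher and 912 lower with every library. Without replicate 2 of 3500 µM these calls became 1567 and 1766 of 21354, and with only the groups compared 756 and 574 of 20261. Without control replicate 1 the higher calls were 322 of 21292. Calls over all genes were also fewer in both directions without control replicate 2 or replicate 1 or 3 of 3500 µM. At 7000 µM 35 members were called, 24 higher and 11 lower, or 30.4% against 25.0% of all genes. The higher calls were 24 of 115 members where 12.7% of all genes were called higher, and the lower calls 11 of 115 where 12.3% of all genes were called lower. The median log2 fold change of the members at 7000 µM was 0.05 against -0.01 for all genes, with 62 of 115 above 0. Scaling to the pan-neuronal genes lowered the median of all genes at 7000 µM to -0.22 and that of the members to -0.16. With that scaling 888 of all 21046 genes were called higher and 4294 lower, and of the members 18 higher and 24 lower. Of the 35 member calls 29 remained, and no member called in both fits changed direction. The count of members was 20 without control replicate 1 and 19 without replicate 3 of 7000 µM, all of them among the 35. Calls over all genes moved as well, from 2676 higher and 2583 lower with every library. They were 1386 and 1077 of 21292 without control replicate 1, and 1342 and 1020 of 21318 without replicate 3 of 7000 µM.

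**Figure D2:**
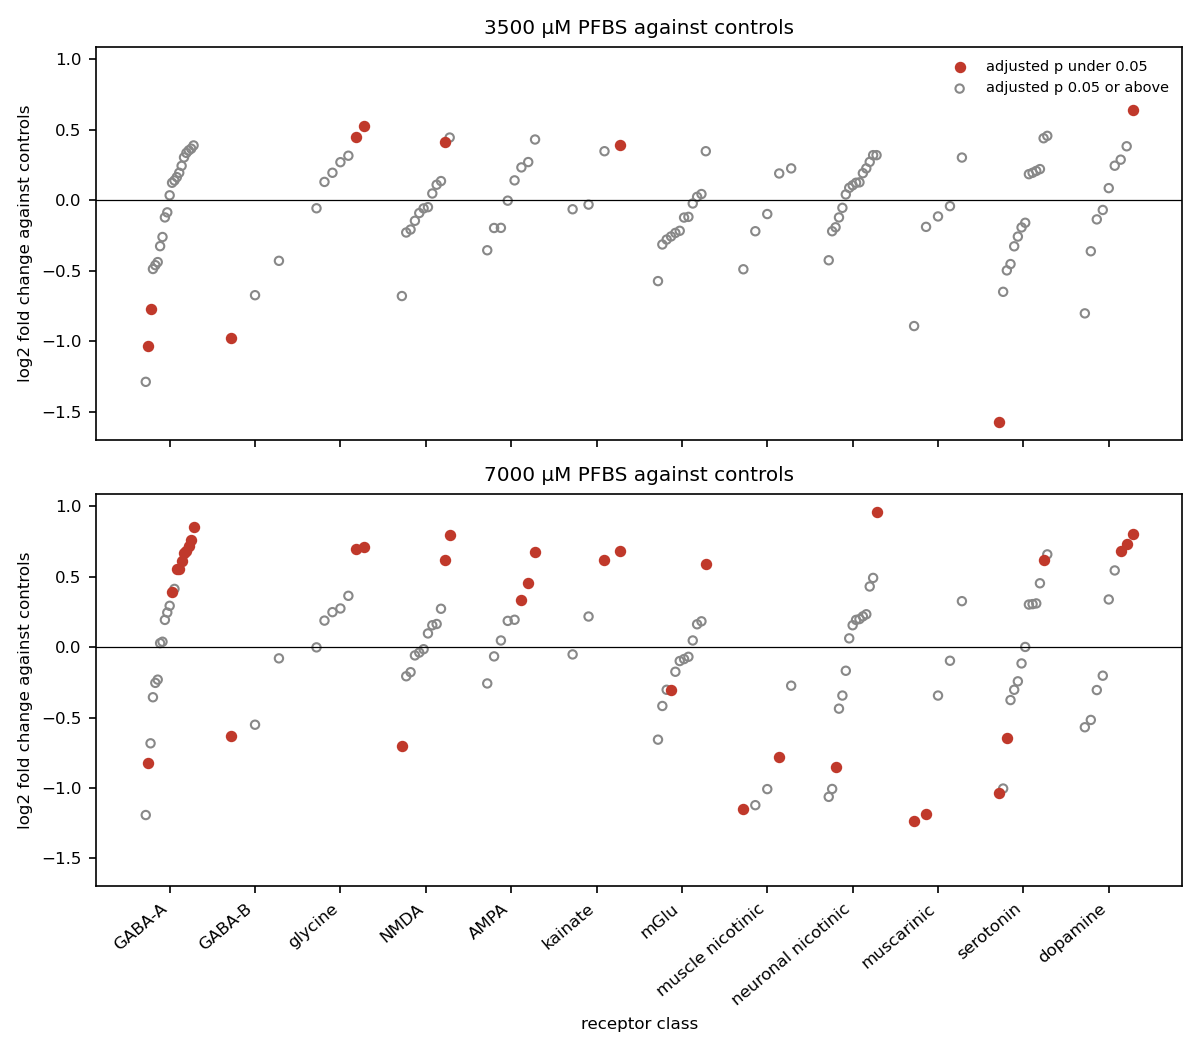
Log2 fold change of the 115 tested receptor genes at 3500 µM (top) and 7000 µM PFBS (bottom) against controls, with 1 point per gene and classes along the x axis. Filled points passed an adjusted p of 0.05 in edgeR's quasi-likelihood test: 5 higher and 4 lower at 3500 µM, and 24 higher and 11 lower at 7000 µM.

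In the counts of genes below, those that rose or fell, or were higher or lower, are those called. Inhibitory receptors came apart by subunit. Of the 21 GABA-A subunit genes, all tested, 9 rose and 1 fell at 7000 µM, where 12.7% of all genes were called higher and 12.3% lower, the same background as for the other classes at this concentration. The class had a median log2 fold change of 0.29, or 0.07 with pan-neuronal scaling, where that of all genes was -0.22. Among the genes that rose were the beta subunit genes gabrb1 and gabrb2a, both alpha-6 duplicates and 4 of the rho subunits. At 7000 µM gabrb2a (chromosome 14, 22172047 to 22273847 in the deposited table's coordinates, whose genome build is not given in the sources used here) had 77.28, 73.08 and 97.03 CPM, against 51.7, 54.12 and 62.39 CPM in controls. Its beta subunit forms part of the GABA binding site, and the 3 exposed libraries lay above all controls (1.47-fold, log2 0.56 ± 0.13, edgeR adjusted p = 0.00554). For gabra6a, an alpha subunit known in mammals from cerebellar granule cells, the values were 38.18, 32.72 and 58.24 CPM at 7000 µM, against 21.56, 26.46 and 23.51 CPM in controls. This was the largest rise of the class (1.81-fold, log2 0.86 ± 0.18, adjusted p = 0.00322). Its duplicate gabra6b stood at log2 0.39 (adjusted p = 0.0494), a call lost with pan-neuronal scaling (log2 0.17, adjusted p = 0.387), with the replicate block (adjusted p = 0.0526), with no filter on low counts and without any 1 control library, replicate 1 or 3 of 7000 µM or any of 5 libraries of lower concentrations. The related gabrb1 had 14.08, 13.69 and 16.7 CPM at 7000 µM, against 7.776, 9.858 and 9.485 CPM in controls (log2 0.72 ± 0.13, adjusted p = 0.00116).

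The rho subunits form GABA channels on their own and are best known from retinal bipolar cells. At 7000 µM gabrr1 reached 32.88, 31.81 and 41.59 CPM, against 20.11, 19.65 and 22.98 CPM in controls (1.69-fold, log2 0.76 ± 0.13, adjusted p = 0.000783). It was followed by gabrr2a, with 28.11, 34.84 and 37.05 CPM at 7000 µM against 21.72, 20.38 and 20.91 CPM in controls (log2 0.67 ± 0.14, adjusted p = 0.00277). The lower-level gabrr2b and gabrr3b rose as well (log2 0.68 and 0.55), while gabrr3a, at log2 0.41, did not pass the test (adjusted p = 0.175). Both calls were lost with pan-neuronal scaling and without control replicate 1 or replicate 3 of 7000 µM, and that of gabrr2b also without control replicate 2 and with only the groups compared. The 5 rho genes together took 27.0, 29.8 and 28.7% of the GABA-A TPM at 7000 µM, against 23.6, 21.0 and 24.4% in controls, a difference of 5.50 percentage points without overlap of the groups (two-sided exact permutation p = 0.1, the smallest that 3 against 3 samples allow). Shares within a class were compared in 5 cases, for which p = 0.1 becomes 0.125 after Benjamini-Hochberg adjustment; the share of the beta subunits differed by 2.72 points (exact permutation p = 0.2), and 1 share is not reported here. Markers of photoreceptors and bipolar cells moved with them. All 25 such genes in the table had positive log2 fold changes at 7000 µM, with a median of 0.77, and 24 were called higher. Their summed level was 19300 to 28760 CPM at 7000 µM, against 13300 to 14150 CPM in controls. The bipolar cell genes cabp5a (log2 1.78) and cabp5b (log2 1.55) were among them, and no gene of that list lacked reads in any group. The part of the retina in the rho result was not tested.

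The only GABA-A gene that fell at 7000 µM was gabrg1, which encodes a gamma subunit. For gabrg1 the values were 1.315, 2.917 and 1.199 CPM at 3500 µM and 1.92, 2.787 and 1.57 CPM at 7000 µM, against 3.861, 4.102 and 3.122 CPM in controls. No exposed library reached the lowest control. The gene was lower in both comparisons (log2 -1.03 ± 0.27, adjusted p = 0.0267 at 3500 µM, and log2 -0.82 ± 0.27, adjusted p = 0.0316 at 7000 µM). In each it lost the call when control replicate 1 or 2 or replicate 1 or 3 of the exposed group was left out. The call at 3500 µM was also lost with only the groups compared. Over the order of the 6 groups the alpha subunit genes gabra3 and gabra5 and the beta subunit gene gabrb4 also fell (log2 -0.33, -0.15 and -0.13 per step, where a step is the move from a group to the next higher concentration). None of these passed the test at a single concentration. The trend of gabra3 was lost without control replicate 1 or 2 or replicate 2 of 7000 µM (slope -0.26 without the last), that of gabra5 without control replicate 1 or replicate 3 of 7000 µM and that of gabrb4 without control replicate 2 or replicate 3 of 7000 µM.

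The GABA-B receptor is a metabotropic pair of gabbr1 and gabbr2 products, neither of which works alone. At 3500 µM gabbr2 (chromosome 19, 34311374 to 34679738) had 5.509, 8.427 and 3.717 CPM and at 7000 µM 8.787, 8.544 and 5.045 CPM, against 11.53, 12.11 and 10.96 CPM in controls. Neither exposed group overlapped the controls. The difference was log2 -0.98 ± 0.23 (adjusted p = 0.0162) at 3500 µM and log2 -0.63 ± 0.22 (adjusted p = 0.0472) at 7000 µM, and the call at 7000 µM was lost in 13 of 18 fits that each left out 1 library. That at 3500 µM was lost without control replicate 1 or 2 or replicate 1 or 3 of 3500 µM. The call at 7000 µM was also lost with RLE size factors, another scaling of libraries (edgeR adjusted p = 0.0501). Its partner gabbr1b had 8.201, 16.79 and 7.495 CPM at 3500 µM and 11.29, 13.94 and 10.09 CPM at 7000 µM, against 18.39, 16.47 and 16.79 CPM in controls (adjusted p = 0.0705 and 0.0818). Replicate 2 of 3500 µM lay within the control range for gabbr1b while the other 2 did not. Summed over the 3 genes of the receptor, the level was 32.18, 29.97 and 29.81 CPM in controls, 37.0, 36.27 and 40.43 CPM at 7 µM, 39.6, 37.75 and 26.36 CPM at 70 µM and 30.49, 25.3 and 27.7 CPM at 700 µM. It was 14.77, 27.29 and 12.35 CPM at 3500 µM and 21.82, 24.78 and 16.54 CPM at 7000 µM. The trend over the 6 groups was downward for gabbr2 and gabbr1b (log2 -0.21 and -0.17 per step, adjusted p = 0.000759 and 0.00245).

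Glycine receptors, the main inhibitory receptors of the spinal cord and hindbrain, had 2 of 7 genes higher at 7000 µM and none lower. For glrba the rise seen at 700 µM was present at each higher concentration: 14.84, 15.36 and 15.89 CPM at 3500 µM and 18.27, 16.36 and 20.01 CPM at 7000 µM, against the controls given above (log2 0.45 ± 0.11, adjusted p = 0.0196, and log2 0.69 ± 0.11, adjusted p = 0.000483). Its adjusted p at 7000 µM was the lowest of any member in that comparison. The alpha subunit gene glra3 had 39.38, 38.76 and 46.89 CPM at 3500 µM and 41.32, 45.14 and 55.49 CPM at 7000 µM, against 25.53, 28.38 and 32.93 CPM in controls (log2 0.53 ± 0.15, adjusted p = 0.036, and log2 0.71 ± 0.15, adjusted p = 0.00321). In contrast glra1, another alpha subunit gene, had a log2 fold change of 0.00 ± 0.09 at 7000 µM (adjusted p = 0.989), with 64.83, 67.62 and 70.85 CPM at 7000 µM and 70.04, 74.3 and 59.32 CPM in controls. Both calls at 3500 µM were lost without control replicate 1 or 2 or replicate 1 or 3 of that group. There glra3 also lost its call with the replicate block, and glrba with only the groups compared. The duplicate of glrba, glrbb, stood at log2 0.27 (adjusted p = 0.0674).

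**Figure D3:**
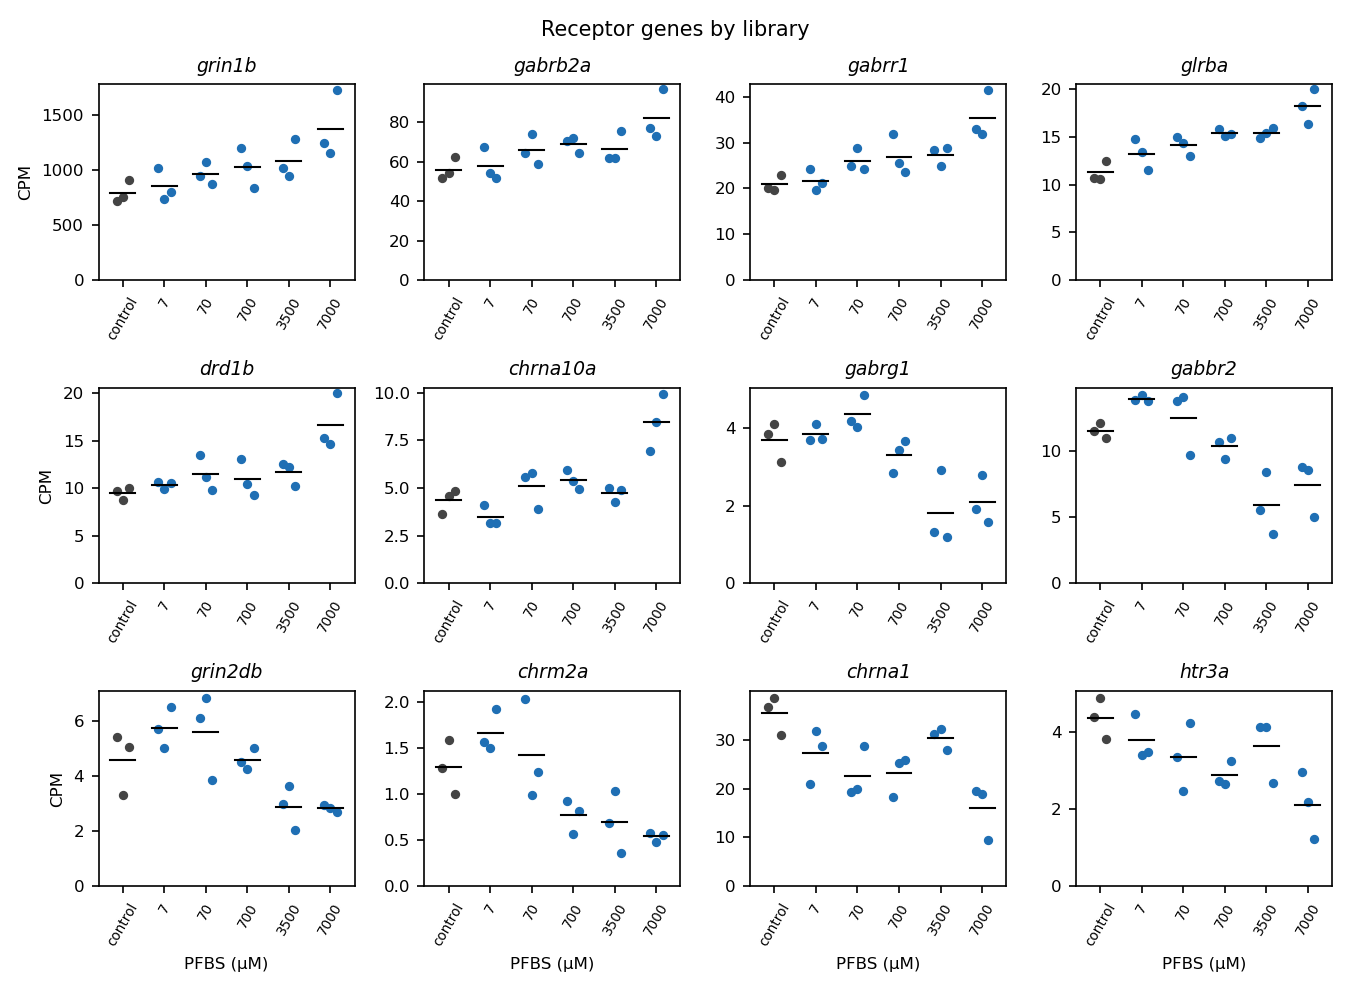
CPM of 12 receptor genes in each of the 18 libraries, with 1 panel per gene, the concentration of PFBS in µM along the x axis (control at the left) and a bar at each group mean. The 7000 µM libraries of grin1b, gabrb2a, gabrr1, glrba, drd1b and chrna10a lie above all control libraries, and those of gabrg1, gabbr2, grin2db, chrm2a, chrna1 and htr3a lie below all control libraries.

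Of the 36 ionotropic and metabotropic glutamate receptor genes, 8 rose and 2 fell at 7000 µM. Both duplicates of grin1, without which no NMDA receptor forms, rose at 7000 µM. There grin1b (chromosome 5, 29597645 to 29643930) had 1244, 1150 and 1722 CPM, against 711.9, 755.1 and 906.0 CPM in controls (1.74-fold, log2 0.80 ± 0.18, adjusted p = 0.00443). The other duplicate, grin1a, had 528.8, 473.8 and 649.7 CPM at 7000 µM, against 334.2, 353.0 and 390.5 CPM in controls (1.53-fold, log2 0.62 ± 0.13, adjusted p = 0.00308). It was also called at 3500 µM, with 447.3, 461.1 and 526.7 CPM (log2 0.41 ± 0.13, adjusted p = 0.0498), a call lost in 13 of 18 fits that left out 1 library. RLE size factors, no filter on low counts and the replicate block each lost that call as well. The grin2 and grin3 genes set the kinetics and calcium flow of the receptor. Of these 10 genes only grin2db passed the test at 7000 µM, with 2.968, 2.848 and 2.691 CPM at 7000 µM against 5.416, 3.308 and 5.066 CPM in controls (log2 -0.70 ± 0.24, adjusted p = 0.0388). Its call did not hold without any 1 of control replicates 1 and 3 and the 3 libraries of 7000 µM. Nor did it hold with the replicate block. The grin1 genes made up 91.1, 90.8 and 92.7% of the NMDA receptor TPM at 7000 µM, against 86.9, 87.3 and 88.3% in controls, a difference of 4.07 percentage points without overlap (two-sided exact permutation p = 0.1, the smallest possible).

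AMPA receptors carry fast excitation, and 3 of their 8 genes rose at 7000 µM while none fell. The class median was log2 0.19, but it was -0.02 with pan-neuronal scaling, where that of all genes was -0.22. At 7000 µM gria4a had 96.66, 83.26 and 115.9 CPM, against 60.97, 51.14 and 72.99 CPM in the control libraries (log2 0.68 ± 0.16, adjusted p = 0.00657). Both gria3 duplicates rose as well: gria3a had 143.3, 136.3 and 170.7 CPM at 7000 µM, against 100.8, 110.9 and 116.4 CPM in controls (log2 0.46 ± 0.11, adjusted p = 0.00842), and gria3b stood at log2 0.34 (adjusted p = 0.0405). Both calls were lost without control replicate 1 or without replicate 3 of 7000 µM, where gria3b stood at log2 0.21 (adjusted p = 0.232). That of gria3b was also lost without control replicate 2, without replicate 1 of 7000 µM, with only the groups compared, with the replicate block (adjusted p = 0.0516) and with pan-neuronal scaling (log2 0.12, adjusted p = 0.289). The gria2 subunit makes AMPA receptors nearly impermeable to calcium. Its genes gria2a and gria2b had log2 fold changes of -0.07 and 0.19 at 7000 µM, neither past the test, and their share of the AMPA TPM was 22.7, 22.4 and 20.9% at 7000 µM, against 27.4, 28.5 and 25.8% in controls. That difference of -5.24 percentage points had no overlap between the groups (two-sided exact permutation p = 0.1, the smallest possible). Kainate receptors had 4 genes, of which both grik1 duplicates rose. At 7000 µM grik1a had 27.06, 24.9 and 32.23 CPM, against 16.79, 17.4 and 20.8 CPM in the control libraries (log2 0.62 ± 0.11, adjusted p = 0.00122), and grik1b had 32.3, 30.78 and 38.01 CPM, against 19.36, 19.32 and 24.27 CPM in the control libraries (log2 0.68 ± 0.15, adjusted p = 0.00465).

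Of the 12 metabotropic glutamate receptor genes, 1 rose and 1 fell at 7000 µM. The one that rose, grm6b, belongs to the receptor type through which ON bipolar cells of the retina read photoreceptor glutamate. It had 49.52, 44.23 and 64.3 CPM at 7000 µM, against 34.48, 33.08 and 37.7 CPM in controls (log2 0.59 ± 0.14, adjusted p = 0.00661), in the libraries in which the summed retinal markers were also above the controls, and the part of the retina was not tested. Its duplicate grm6a did not follow and stood at log2 -0.30 (adjusted p = 0.368). The presynaptic receptor gene grm4 had 22.52, 21.15 and 20.12 CPM at 7000 µM, against 25.15, 27.46 and 26.04 CPM in controls (log2 -0.30 ± 0.10, adjusted p = 0.0367). It was a small change in which the groups did not overlap, and the call was lost without any 1 control library or replicate 2 or 3 of 7000 µM.

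**Figure D4:**
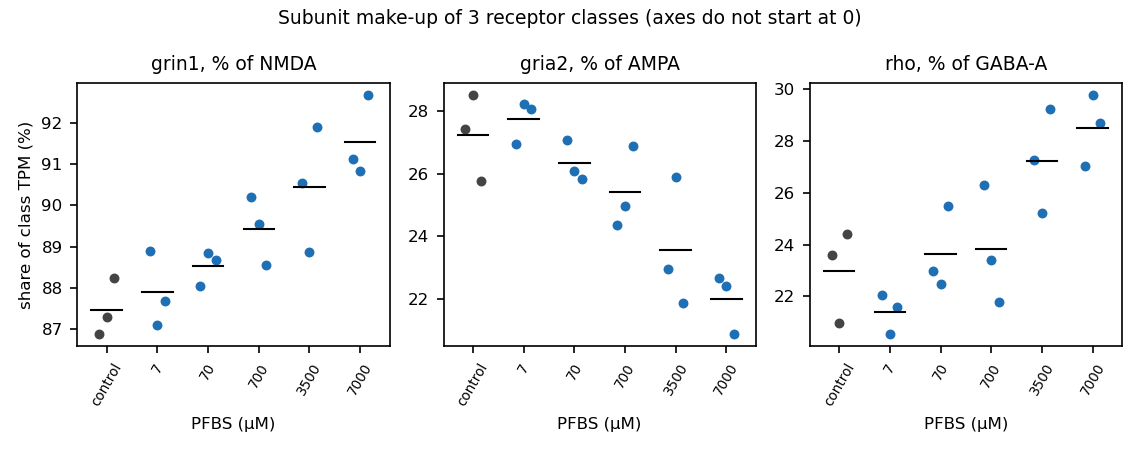
Share of the class TPM in each library taken by grin1 among NMDA, gria2 among AMPA and rho among GABA-A genes, in percent, with the concentration of PFBS in µM along the x axis and a bar at each group mean; the y axes do not start at 0. Groups at 7000 µM and in controls do not overlap in any panel: grin1 and rho are higher and gria2 is lower at 7000 µM. This is not particular to the shares drawn. Most other shares of these classes do not overlap either, such as gria3 at 47.7 to 49.6% at 7000 µM against 44.5 to 47.3% in controls.

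The muscle nicotinic receptor sits at the neuromuscular junction and is built of the products of chrna1, chrnb1, chrnd and either chrne or, early in mammalian development, chrng. The 5 tested genes all had negative log2 fold changes at 7000 µM, with a median of -1.01, and 2 were called. At 7000 µM chrna1 (chromosome 6, 10812337 to 10828923) had 19.55, 18.97 and 9.417 CPM, against 36.68, 38.5 and 30.99 CPM in controls (2.22-fold lower, log2 -1.15 ± 0.22, adjusted p = 0.00204). For chrnd the values were 8.38, 8.907 and 3.588 CPM at 7000 µM, against 14.26, 11.31 and 10.07 CPM in controls (log2 -0.78 ± 0.26, adjusted p = 0.0365). Replicate 3 was the lowest library for both. Without it chrna1 kept its call at log2 -0.88 (adjusted p = 0.00819), while chrnd stood at log2 -0.46 and lost it. The call of chrnd was also lost without control replicate 1 or 2 and with only the groups compared. The other subunits missed the threshold: chrnb1 at log2 -1.12 ± 0.46 (adjusted p = 0.0826), chrne at log2 -1.01 ± 0.39 (adjusted p = 0.0651) and chrng at log2 -0.27 ± 0.38 (adjusted p = 0.625). The paralog chrnb1l had too few reads to test, with 0.0561 to 0.303 CPM at 7000 µM and 0.118 to 0.644 CPM in controls.

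The summed level of the 6 muscle nicotinic genes did not fall steadily with concentration. Relative to the control mean, the sums were 80.1 to 111% in controls, 62.3 to 100.3% at 7 µM, 47.9 to 93.0% at 70 µM, 49.5 to 79.7% at 700 µM, 89.6 to 105% at 3500 µM and 22.8 to 64.3% at 7000 µM. The summed levels of 31 skeletal muscle markers also differed between libraries. They were 98.6 to 102.7% of the control mean in controls, 79.6 to 101.4% at 7 µM, 61.7 to 103% at 70 µM, 65.8 to 82.1% at 700 µM, 95.2 to 115.9% at 3500 µM and 22.2 to 62.6% at 7000 µM. All 31 markers had negative log2 fold changes at 7000 µM, with a median of -1.09, and 26 were called lower. The gene rapsn, which encodes the protein that clusters nicotinic receptors at the synapse, fell by 1.86 ± 0.39 on the log2 scale (adjusted p = 0.00305). The part of muscle in the receptor values was not tested.

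**Figure D5:**
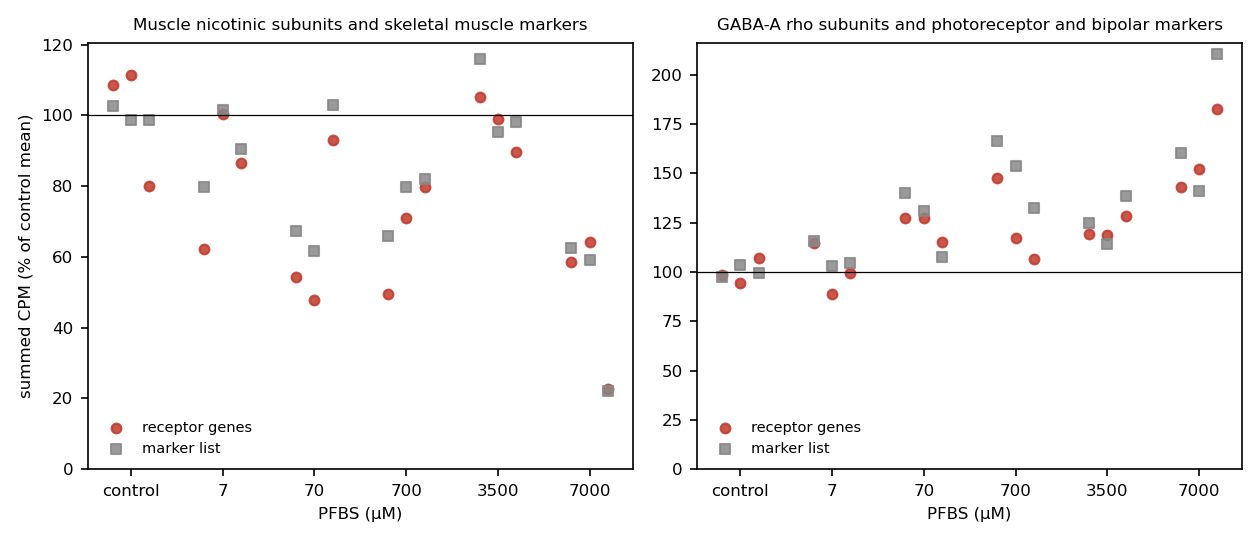
Summed CPM of the 6 muscle nicotinic genes with 31 skeletal muscle markers (left) and of the 5 GABA-A rho genes with 25 photoreceptor and bipolar cell markers (right), in percent of the control mean, with 1 pair of points per library and the concentration of PFBS in µM along the x axis. In 7000 µM replicate 3 the muscle receptor sum is 22.8% and the muscle marker sum 22.2%, and all 3 rho and retinal sums at 7000 µM exceed the controls.

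Neuronal nicotinic genes, 16 of which 15 were tested, had 1 call in each direction at 7000 µM. The largest rise of any member was that of chrna10a, whose mammalian counterpart forms the receptor of efferent synapses on hair cells. It had 6.925, 8.483 and 9.922 CPM at 7000 µM, against 3.647, 4.565 and 4.831 CPM in controls (1.95-fold, log2 0.96 ± 0.18, adjusted p = 0.00154). On chromosome 18 the table places chrnb4 (50627085 to 50635419) beside chrna3 (50638006 to 50648476), whose products pair in the receptor of autonomic ganglia. Of that pair chrnb4 had 1.048, 1.151 and 1.513 CPM at 7000 µM, against 2.735, 1.654 and 2.298 CPM in controls (log2 -0.85 ± 0.26, adjusted p = 0.0251). Its call was lost without control replicate 1 or 3 or replicate 1 or 2 of 7000 µM, and with only the groups compared. For chrna3 the log2 fold change against controls was -0.34 ± 0.17 (adjusted p = 0.132), but it differed between the highest concentrations. The homomeric channel gene chrna7 fell over the 6 groups (log2 -0.24 per step, adjusted p = 0.0213), a call lost without control replicate 1 or replicate 3 of 7000 µM.

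Muscarinic receptors are metabotropic, and the m2 type slows the heart. Both of its duplicates had low levels and fell at 7000 µM. At 7000 µM chrm2a had 0.582, 0.485 and 0.561 CPM, against 1.287, 1.588 and 1.002 CPM in controls (2.35-fold lower, log2 -1.23 ± 0.37, adjusted p = 0.0222), the largest fall of any member called there. The call was lost without control replicate 1 or 2 or replicate 2 or 3 of 7000 µM. For chrm2b the values were 0.175, 0.364 and 0.336 CPM at 7000 µM, against 0.751, 0.926 and 0.354 CPM in controls, and the groups overlapped (log2 -1.19 ± 0.42, adjusted p = 0.0446). That call was lost in 11 of 18 fits that left out 1 library. It was also lost with DESeq2 (adjusted p = 0.0923), with no filter on low counts and with the replicate block. The class leader chrm4a stood at log2 -0.10 (adjusted p = 0.481).

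Serotonin receptors had 1 gene higher and 2 lower of 14 tested at 7000 µM. The 5-HT3 subunit gene htr3a, the only serotonin receptor type that is a channel, had 2.968, 2.181 and 1.233 CPM at 7000 µM, against 4.397, 4.896 and 3.829 CPM in controls (2.06-fold lower, log2 -1.04 ± 0.27, adjusted p = 0.0104); the call was lost without replicate 3 of 7000 µM. The gene of the inhibitory receptor htr1b fell by 0.65 ± 0.21 on the log2 scale (adjusted p = 0.0323). Its call was lost without control replicate 1 or 2 or replicate 1 or 3 of 7000 µM, and with only the groups compared. In the other direction htr5ab had 4.888, 5.211 and 5.325 CPM at 7000 µM, against 2.842, 3.969 and 3.299 CPM in controls (log2 0.62 ± 0.18, adjusted p = 0.0177), and the call was lost without control replicate 1, without replicate 3 of 7000 µM and with pan-neuronal scaling (log2 0.40, adjusted p = 0.111). At 3500 µM htr6 had 0.0626, 0.195 and 0.36 CPM, against 0.536, 0.595 and 0.766 CPM in the control libraries (log2 -1.57 ± 0.48, adjusted p = 0.0478). The call rests on few reads and was lost in 15 of 18 fits that left out 1 library. It was also lost with pan-neuronal scaling, with no filter on low counts and with the replicate block. The receptor gene with the highest TPM of the class, htr1aa, rose over the 6 groups (log2 0.12 per step, adjusted p = 0.00575).

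Dopamine receptors had 3 of 9 tested genes higher at 7000 µM and none lower, where 12.7% of all genes were called higher and 12.3% lower. The D1 type activates and the D2, D3 and D4 types inhibit adenylyl cyclase, and genes of both kinds rose. At 7000 µM drd1b had 15.25, 14.6 and 20.01 CPM, against 9.706, 8.799 and 10.07 CPM in controls (1.74-fold, log2 0.80 ± 0.15, adjusted p = 0.00162). For drd3 the values were 8.64, 8.427 and 11.75 CPM at 3500 µM and 11.23, 9.271 and 10.26 CPM at 7000 µM, against 5.577, 5.69 and 7.246 CPM in controls (log2 0.64 ± 0.17, adjusted p = 0.027, and log2 0.73 ± 0.17, adjusted p = 0.00557). The call of drd3 at 3500 µM was lost without control replicate 1 or 2 or replicate 1 or 3 of 3500 µM, and with only the groups compared. The other gene that rose, drd4a, stood at log2 0.68 ± 0.16 (adjusted p = 0.00726), a call lost without replicate 3 of 7000 µM and with pan-neuronal scaling (log2 0.46, adjusted p = 0.0613). Over the 6 groups drd2a fell (log2 -0.19 per step, adjusted p = 0.00848), so the D2-like genes did not move together.

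Over the order of the 6 groups 26 members rose and 21 fell, or 40.9% of those tested against 37.5% of all genes, of which 18.6% rose and 18.9% fell. With pan-neuronal scaling 1614 of all 21046 genes rose and 5204 fell, and of the members 21 rose and 38 fell. The steepest rises were those of chrna10a (log2 0.18 per step), gabra6a (0.15), grin1b (0.15) and gria4a (0.14), and the steepest falls those of gabra3 (-0.33), chrm2a (-0.31), chrna7 (-0.24) and gabrg1 (-0.22). Between the highest concentrations, a comparison chosen after seeing the data, 7000 µM differed from 3500 µM in 8 members, or 6.96% of those tested against 6.28% of all genes, 2.44% higher and 3.84% lower. The 4 that were higher at 7000 µM were chrna10a (log2 0.83 ± 0.18, adjusted p = 0.0131), gabrb1 (0.52), drd1b (0.51) and gabrr2a (0.50). The 4 that were lower at 7000 µM were chrm2b (log2 -1.49), chrnd (-0.97), chrna1 (-0.93 ± 0.23, adjusted p = 0.023) and chrna3 (-0.62). Without replicate 3 of 7000 µM 0 members passed (16 had an unadjusted p under 0.05), without replicate 1, 2 or 3 of 3500 µM 1, 3 or 5 passed, and with only the libraries of both concentrations fitted 0 passed (24 had an unadjusted p under 0.05). These losses were not particular to receptors. Over all genes the 513 higher and 808 lower calls became 90 and 197 of 21318 without replicate 3 of 7000 µM. They were also fewer in both directions without any 1 replicate of 3500 µM and with only both concentrations fitted.

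Among the 36 pairs of a and b duplicates, 29 had both members tested. At 7000 µM both members of 6 pairs passed the test: grin1, gria3, grik1, gabra6, gabrr2 and chrm2. The members of each of these 6 pairs changed in the same direction. The calls of gabra6b, gabrr2b, gria3b and chrm2b were lost in several alternative fits, as given above. How often both duplicates of a pair are called among all genes was not computed. In 6 further pairs 1 of the 2 passed, and the other member had a log2 fold change of the same sign in 5 of them, all but grm6. Sign alone says little for gria4b (log2 0.05, against 0.68 for gria4a) and grin2da (-0.04, against -0.70 for grin2db). The rest of these partners lay between log2 0.34 and 0.54. In 17 pairs neither passed. How reads that match both duplicates were assigned is not given in the sources used here, so values of close paralogs are uncertain.

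Counts of single transcripts were tested in the same way. Of 179 member transcripts tested at 7000 µM, 22 were higher and 3 lower, where 14.2% of all 31721 transcripts were called in either direction. That background was not split by direction, so the split of the members cannot be set against it. In 1 gene, the presynaptic glutamate receptor gene grm2a, named here after its values were seen, transcripts went both ways. Its transcript 201 was lower at 7000 µM (log2 -0.98, edgeR adjusted p = 0.0214) and its transcript 202 higher (log2 1.303, adjusted p = 0.0127), while the sum over the gene stood at log2 -0.10. Transcript 202 took 60.5, 42.8 and 66.1% of the reads of grm2a at 7000 µM, against 20.9, 20.6 and 23.1% in controls. At 7 µM the share averaged 31.4%, and it averaged 38.0% at 70 µM, 35.0% at 700 µM and 50.5% at 3500 µM. For grin2ab, whose gene sum did not pass the test, transcript 201 was higher at 7000 µM (log2 0.60, adjusted p = 0.0199). At 3500 µM 1 member transcript was higher and 2 were lower, where 3.28% of all transcripts were called. Of these transcript 202 of gabbr1a was lower (log2 -2.01, adjusted p = 0.0185), with 4, 5 and 4 reads at 3500 µM against 28, 11 and 18 in controls. How reads shared by transcripts of a gene were assigned is not known, so these shares are the table's own.

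Proteins that hold and tune the receptors, from a list of 59 genes of which 52 were tested, had 16 higher and 5 lower at 7000 µM, with a median log2 of 0.12, where 12.7% of all genes were called higher and 12.3% lower and the median of all genes was -0.01. The same background holds for the next 2 lists. Both gephyrin genes, which anchor glycine and GABA-A receptors, rose: gphna had 127.5, 114.4 and 151.3 CPM at 7000 µM, against 85.53, 87.13 and 103.9 CPM in controls (log2 0.51 ± 0.13, adjusted p = 0.00875), and gphnb stood at log2 0.32 (adjusted p = 0.0405). The gene lhfpl4a, whose mammalian counterpart brings GABA-A receptors to synapses, was lower (log2 -0.83 ± 0.27, adjusted p = 0.0311). Of 44 genes for making, packing, taking up or breaking down transmitters, 13 were higher and 4 lower at 7000 µM. The GABA-synthesising enzymes gad1b (log2 0.53 ± 0.12, adjusted p = 0.00512) and gad2 (log2 0.64 ± 0.11, adjusted p = 0.00121) were among the genes that rose, and the GABA transporter slc6a11b (log2 -0.94 ± 0.28, adjusted p = 0.0198) among the genes that fell. Of 31 pan-neuronal genes 3 were called higher and 3 lower at 7000 µM, with a median log2 of 0.13. Gene by gene, results of the alternative fits were kept for receptor genes only. Calls of genes in these and the marker lists were therefore not checked against those fits.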

How the data were processed

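The authors deposited a table of transcripts with whole-number read counts per sample and, beside them, TPM values scaled for transcript length and library size, per the file headers. Aligner, counting program and genome build: not given in the sources used here. Deposited counts and TPM were summed per gene. The gene sums went into edgeR 4.0.16 (R 4.3.3). Genes with low counts were removed with filterByExpr (minimum count 10), which left 21046, libraries were scaled by TMM, and 1 quasi-likelihood fit of all 18 libraries had 6 group means. Tests were two-sided F tests with Benjamini-Hochberg adjustment over all genes and a threshold of 0.05. The coefficient of variation from edgeR's common dispersion, a single value shared by all genes and without counting noise, was 12.9%. The procedure was tested on simulated counts. Errors are approximate SE, taken as the absolute log2 fold change divided by the square root of its F statistic. DESeq2 1.42.0, limma 3.58.1, other scalings, no filter, transcript counts, a replicate block and leaving out each library served as alternatives.

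The members, lists and tests were chosen with earlier results of these data known. Named were, per comparison, the 10 largest rises and 10 largest falls among called members, the 3 members with the highest TPM in each class and the muscle nicotinic subunits. Other members and list genes were named after their values were seen. The deposited fold changes and RPKM were not used. Sequences were not used here. Values of some members are not reported here.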

Additional observations from a re-analysis of the deposited data

How the results depend on the processing

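At 7 and 70 µM the number of called members was 0 in every alternative run. At 700 µM the 1 higher call became 0 with pan-neuronal scaling, with the replicate block and with transcript counts. It became 2 with DESeq2 and 5 when only the groups compared were fitted, which also gave 1 lower call in place of 0. Over all genes the 267 higher and 407 lower calls there became 46 and 271 with pan-neuronal scaling and 192 and 249 with the block. They became 390 and 687 with DESeq2 and 639 and 1263 with only the groups compared. At 3500 µM the 5 higher calls became 3 without a filter, 3 with the block, 2 with only the groups compared and 1 with transcript counts. The 4 lower calls became 2 in each of the last 2 fits. Over all genes the 1082 higher and 912 lower calls at 3500 µM became 815 and 912 of 27222 without a filter. They became 913 and 844 with the block and 756 and 574 with only the groups compared. At 7000 µM the 11 lower calls became 24 with pan-neuronal scaling and 3 with transcript counts, and the 21 lower trends became 38 with pan-neuronal scaling. Over all genes that scaling moved the lower calls at 7000 µM from 2583 to 4294 and the lower trends from 3982 to 5204. For 7000 against 3500 µM the 4 higher calls became 1 with pan-neuronal scaling, 0 with only the groups compared and 7 with DESeq2, and the 4 lower calls became 2 with the block and 0 with only the groups compared or transcript counts. The transcript fit splits a gene's reads and tests more features; for the other moves the cause was not tested.

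Leaving out 1 library at a time gave 0 to 0 calls at 7 and 70 µM, 0 to 4 higher and 0 to 1 lower at 700 µM, 0 to 7 higher and 0 to 15 lower at 3500 µM, 17 to 27 higher and 2 to 14 lower at 7000 µM, 21 to 30 higher and 16 to 25 lower trends, and 0 to 7 higher and 0 to 5 lower for 7000 against 3500 µM. At 7000 µM chrna1 and chrnb4 were the only falls called without replicate 3 of that group. Counts over all genes moved as well, at 3500 µM from 322 higher without control replicate 1 to 1567 higher without replicate 2 of that group. At 700 µM they ran from 26 higher and 16 lower without replicate 1 of that group to 489 and 813 without replicate 3 of 7000 µM. For 7000 against 3500 µM they ran from 90 higher without replicate 3 of 7000 µM to 651 higher without its replicate 2.

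Replicate numbers showed no clear pairing of the samples. Over 45 same-numbered pairs the deviations from group means correlated with a median r of -0.01 (-0.4 to 0.33), against 0.02 for other pairs. Only 1 of 18 libraries was closest to one of its own number. With 3 samples a group this check cannot exclude that same-numbered samples shared a clutch or batch. The replicate block left 31 of 35 calls at 7000 µM. No call of a named member changed sign under the alternatives run. Members with few reads limit the precision, as for htr6, chrm2b and gabra3.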
